A study of Homo sapiens with 6 samples.

Results

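The genes described here encode lysosomal hydrolases and their activators, lysosomal membrane proteins, the vacuolar H+-ATPase (V-ATPase) and the autophagy machinery, together with TFEB and TFE3, transcription factors that act on many of them. They were taken by gene name from a deposited expression table, and all 41 named genes were found among its 14168 genes. The table comes from BJ, a human fibroblast line established from foreskin, labelled wild type and grown in RPMI medium with fetal bovine serum. There were 2 groups of 3 libraries, one from cells given a control siRNA and the other from cells given an siRNA against agrin (AGRN), a heparan sulfate proteoglycan of the extracellular matrix. Polyadenylated RNA was sequenced with a stranded kit. The sources used here do not give the siRNA sequences, their dose or the time of harvest, and each group holds this single cell line. Separate cultures are not stated for the replicates, so the p-values describe the spread among these libraries alone, and that spread may be technical.

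Lysosomes break down macromolecules in an acidic lumen that the V-ATPase maintains by pumping protons. Most soluble hydrolases carry a mannose 6-phosphate tag that receptors recognise on the way from the Golgi, while membrane proteins such as LAMP1 and LAMP2 line the organelle. In macroautophagy, ULK1 and BECN1 complexes start a membrane that WIPI proteins and the conjugation enzymes ATG5 and ATG7 extend, LC3 and GABARAP proteins coat it, and receptors such as SQSTM1 load cargo before it fuses with a lysosome. TFEB and TFE3 bind an E-box with the core CACGTG in the promoters of many such genes, and mTORC1 at the lysosome controls both factors mainly by phosphorylation.

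The promoters show which members carry those letters. RefSeq windows (GRCh38.p14, from 250 bases before to 50 after a transcript start) were matched for 32 of the 41 genes. CACGTG, searched on both strands, was present in 7 of these 32 (21.9%): ARSB, ATP6V0D1, CD63, GAA, LAMP1, MCOLN1 and NEU1. It was present in 12.5% of the 10258 listed genes with a window. The longer palindrome GTCACGTGAC, the same core with GT before it and AC after it, was found in GAA and MCOLN1, or 6.25% of the members with a window, against 0.916% of the listed genes with one and 0.353% of all 35116 windows. The windows of MCOLN1 (chr19:7522374-7522673, plus strand), GAA (chr17:80101331-80101630, plus strand) and LAMP1 (chr13:113296989-113297288, plus strand) are printed because they hold the palindrome or, in LAMP1, 6 copies of the core. That of CD68 (chr17:7579388-7579687, plus strand) is printed because CD68 had the largest change among the 41 genes, and it holds no CACGTG. Each is written 5′ to 3′, with CACGTG, or GTCACGTGAC where the whole palindrome is present, in capitals.
MCOLN1: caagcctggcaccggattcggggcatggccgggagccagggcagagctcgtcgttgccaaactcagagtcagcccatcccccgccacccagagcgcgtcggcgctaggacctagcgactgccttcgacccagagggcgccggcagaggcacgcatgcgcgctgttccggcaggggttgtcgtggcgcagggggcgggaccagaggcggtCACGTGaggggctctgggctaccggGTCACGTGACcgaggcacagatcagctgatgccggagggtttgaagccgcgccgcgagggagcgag
GAA: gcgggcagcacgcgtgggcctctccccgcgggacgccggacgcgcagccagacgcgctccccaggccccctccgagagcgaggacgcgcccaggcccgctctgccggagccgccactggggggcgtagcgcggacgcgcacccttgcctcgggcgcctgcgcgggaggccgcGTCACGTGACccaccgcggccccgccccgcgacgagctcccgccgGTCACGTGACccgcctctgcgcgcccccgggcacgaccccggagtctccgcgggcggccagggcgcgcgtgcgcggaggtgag
LAMP1: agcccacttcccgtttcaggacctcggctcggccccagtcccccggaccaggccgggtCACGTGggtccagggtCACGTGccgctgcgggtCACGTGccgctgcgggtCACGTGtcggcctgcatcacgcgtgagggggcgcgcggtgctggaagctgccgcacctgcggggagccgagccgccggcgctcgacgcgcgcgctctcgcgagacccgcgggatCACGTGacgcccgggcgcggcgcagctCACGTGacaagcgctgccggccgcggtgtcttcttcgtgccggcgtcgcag
CD68: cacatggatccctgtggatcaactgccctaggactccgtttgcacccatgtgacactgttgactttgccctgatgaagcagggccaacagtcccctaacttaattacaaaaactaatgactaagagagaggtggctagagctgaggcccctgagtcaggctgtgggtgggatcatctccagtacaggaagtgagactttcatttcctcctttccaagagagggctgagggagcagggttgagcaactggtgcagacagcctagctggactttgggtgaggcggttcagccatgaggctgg

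The values are the submitters' scaled CPM (read counts divided by a factor for each library). Each column sums to between 1073190 and 1096530, and from 42736368 to 48246613 reads per library were recovered from the steps between values. The 41 genes together took 0.952% ± 0.00536 of the reads in the control libraries and 0.942% ± 0.0611 in the agrin siRNA libraries (SD, n = 3 each). AGRN itself measured 744, 804 and 790 scaled CPM in the control libraries and 290, 297 and 265 in the agrin siRNA libraries, 36.4% of the control mean (log2 fold change -1.46, SE 0.05, limma adjusted p = 3.19e-06). Of 8 fibroblast markers, all were tested and 4 fell (COL1A1, LUM, PDGFRB and FAP), where 13.5% of all tested genes fell. COL1A1 lost its call without control replicate 1, 2 or 3 or agrin replicate 3 (limma adjusted p = 0.0503 to 0.172) and LUM without control replicate 1 (0.0587). Their summed level was 43300.2 to 46359 in the control libraries and 40868 to 42542 in the agrin siRNA libraries. Of 4 endothelial markers CDH5 alone has a row, at 0 in every library, and the 4 epithelial markers summed to at most 1.61. Of 4 melanocyte markers PMEL alone has a row. It measured 1.29 to 1.68 scaled CPM in control libraries and 1.18 to 1.51 in agrin siRNA libraries and gave no call.

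With all libraries kept, the share of the 41 genes that were called was near that of all tested genes. Of the 41, all of which passed the filter on low values, 7 rose and 4 fell after agrin siRNA (limma with a variance trend, two-sided, Benjamini-Hochberg adjusted p under 0.05 over 13206 tested genes). That is 26.8% of the members, beside 28.7% of all tested genes, of which 15.2% rose and 13.5% fell. These shares depended on the libraries kept: without agrin replicate 2, 34.1% of the members rose, against 19.3% of all tested genes. The genes that rose were CD68, ARSA, GUSB, ARSB, TPP1, ATG7 and WIPI2, and those that fell were SQSTM1, ATP6V1B2, LIPA and LAMP2. When libraries were rescaled to totals that omit mitochondrial transcripts and the 10 genes with most reads, 2 members rose and 5 fell, as did 1574 and 2260 of all tested genes. The median log2 fold change was 0.02 over the members and 0.00 over all tested genes, and the median absolute values were 0.09 and 0.11. An absolute log2 fold change of at least 0.25 with a call was reached by 3 members, CD68, ATP6V1B2 and SQSTM1 (7.32%, against 16.2% of all tested genes). In 14 members (34.1%) the 3 values of one group lay entirely above or below the other 3, against 45.2% of all tested genes. Of these 14, 8 were higher after agrin siRNA (19.5%, against 23.7% of tested genes) and 6 lower (14.6%, against 21.5%).

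The intervals of the members' changes were narrow, but they rest on the spread among these libraries alone, which may be technical. They do not set a limit on the size of change that could have been missed. The 95% interval of a member's log2 fold change reached between 0.08 and 0.19 to either side of its value, with a median of 0.11. Of the 30 members without a call, 27 had an interval lying wholly between -0.25 and 0.25. The others were HEXA, GRN and NAGLU. The counts by class stand beside 15.2% of all tested genes that rose and 13.5% that fell. Of 15 enzymes and activators 4 rose and 1 fell, and of 5 membrane proteins 1 rose and 1 fell. Of 7 V-ATPase genes 1 fell, and of 14 autophagy genes 2 rose and 1 fell. The class medians of the log2 fold change were 0.09, 0.05, -0.03 and -0.01 in that order.

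**Figure D1:**
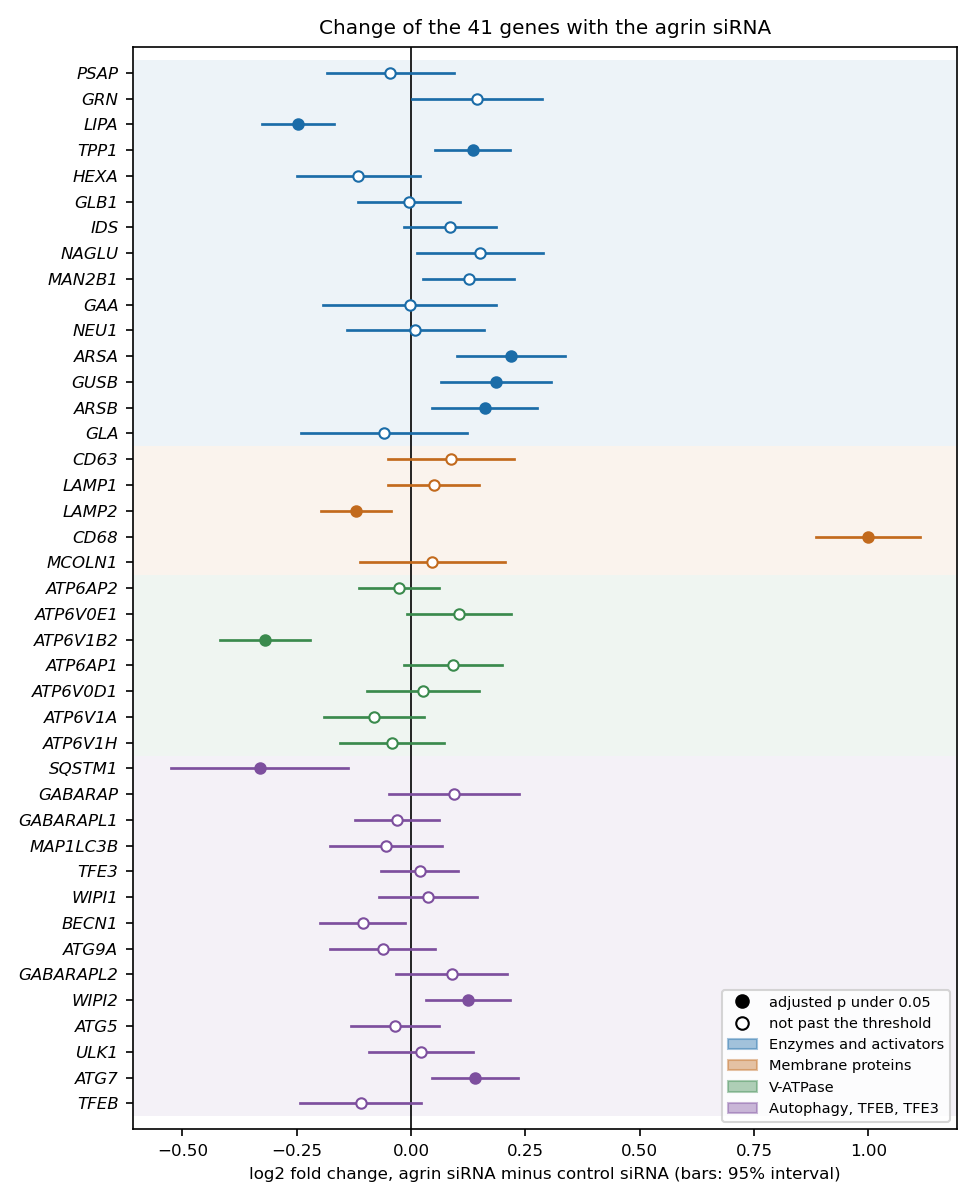
Log2 fold change of each of the 41 genes after agrin siRNA against control siRNA, by class, with 95% intervals from limma. CD68 stands alone near 1.00, ATP6V1B2 and SQSTM1 lie below -0.25, and 33 of the 41 genes lie within 0.15 of zero.

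The enzymes that degrade glycans, lipids and proteins were for the most part measured at close to the same level in both groups. PSAP, the precursor of the saposins that present sphingolipids to their hydrolases, had the highest level of this class. It measured 1536, 1524 and 1478 scaled CPM in the control libraries and 1587, 1349 and 1471 in the agrin siRNA libraries. The groups overlapped, and the difference (log2 fold change -0.05) did not pass the test (limma adjusted p = 0.617). GRN encodes progranulin, a secreted and lysosomal precursor of granulins. Its values were 622, 613 and 603 in control libraries and 745, 617 and 676 after agrin siRNA. These overlapped too, since agrin replicate 2 lay below the highest control library (log2 fold change 0.14, limma adjusted p = 0.117). The adjusted p for GRN was 0.00454 without agrin replicate 2.

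LIPA, the lysosomal acid lipase that hydrolyses cholesteryl esters and triglycerides, was the 1 enzyme that fell. Control libraries measured 316, 322 and 323 scaled CPM and agrin siRNA libraries 274, 270 and 266, without overlap, a change from 320 ± 3.59 to 270 ± 4.19 (SD, n = 3 each). The log2 fold change was -0.25 (SE 0.04, limma adjusted p = 0.000976), and the call held with any 1 library left out, at adjusted p up to 0.009. The annotated span of LIPA overlaps IFIT1, IFIT2 and IFIT3 on the opposite strand. These interferon-induced genes had log2 fold changes of 0.57, 0.78 and 0.47 and all rose. The overlap is given for annotated spans, not for exons, and no source used here gives the strand setting of the counting. Whether reads were shared between LIPA and these genes was not tested.

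The 4 enzymes that rose did so by 9.77% to 16.6% of the control mean. ARSA, which removes sulfate from sulfatide, measured 61.3, 63.6 and 64.0 scaled CPM in control libraries and 78.8, 68.9 and 72.5 after agrin siRNA (log2 fold change 0.22, SE 0.05, limma adjusted p = 0.0137). GUSB, the β-glucuronidase that trims glycosaminoglycans, measured 58.4, 56.7 and 55.5 and then 68.9, 60.2 and 65.4 (log2 fold change 0.19, limma adjusted p = 0.0286). Both pairs of groups were separate, but the distance from the highest control library to the lowest agrin siRNA library, replicate 2 in each case, was small. ARSB, the sulfatase of dermatan sulfate, went from 41.1, 42.1 and 41.8 to 43.8, 49.4 and 46.9 (log2 fold change 0.16, limma adjusted p = 0.0408). TPP1, a tripeptidyl peptidase, went from 325, 319 and 310 to 351, 346 and 350 (log2 fold change 0.13, limma adjusted p = 0.0228). In ARSB the order differed from that of ARSA and GUSB, with agrin replicate 2 highest, and in TPP1 the 3 agrin siRNA libraries were nearly equal.

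These 4 calls depended on single libraries, and 3 of them also on the scaling and the variance model. GUSB, TPP1 and ARSB lost theirs after the rescaling described above (limma adjusted p = 0.0529, 0.0516 and 0.0756) and without limma's variance trend (0.057, 0.0531 and 0.0666), and ARSB with DESeq2 (adjusted p = 0.056). That of ARSA was lost without control replicate 1 (limma adjusted p = 0.069). That of TPP1 was lost without control replicate 1, 2 or 3 or agrin replicate 3 (0.061 to 0.0937). The call for GUSB was lost without control replicate 1, 2 or 3 or agrin replicate 1 or 3 (0.0552 to 0.105), and that for ARSB without control replicate 1, 2 or 3 or agrin replicate 2 or 3 (0.0623 to 0.139). The direction was kept in each case. GUSB has 11 pseudogenes by name in the annotation, of which GUSBP11 was listed, at 3.18 scaled CPM. TPP1 shares its strand and part of its span with AC091564.7, which rose as well (log2 fold change 0.18, adjusted p = 0.00707), so a split of reads between them is uncertain.

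The other 8 enzymes gave no call. MAN2B1, the lysosomal α-mannosidase, measured 107 to 110 scaled CPM in control libraries and 111 to 122 after agrin siRNA, without overlap (log2 fold change 0.13, limma adjusted p = 0.0591). NAGLU, which acts on heparan sulfate, had a log2 fold change of 0.15 (0.0937). Both would have been called higher without agrin replicate 2, at adjusted p = 0.00464 for MAN2B1 and 0.0019 for NAGLU. IDS, the iduronate sulfatase, had a log2 fold change of 0.09 and HEXA, the α subunit of β-hexosaminidase A, one of -0.12. Without agrin replicate 1, IDS would have been called higher (0.0368) and HEXA lower (0.0142). The remaining enzymes were the α-galactosidase GLA (-0.06), the glycogen-degrading GAA (-0.0026), the β-galactosidase GLB1 (-0.0043) and the sialidase NEU1 (0.0098). MAN2B1, NAGLU, IDS and HEXA each overlap at least 1 listed locus on the same strand, so their reads may be split. The locus at NAGLU, AC067852.1, rose (log2 fold change 0.23), and those at the other named enzymes gave no call.

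**Figure D2:**
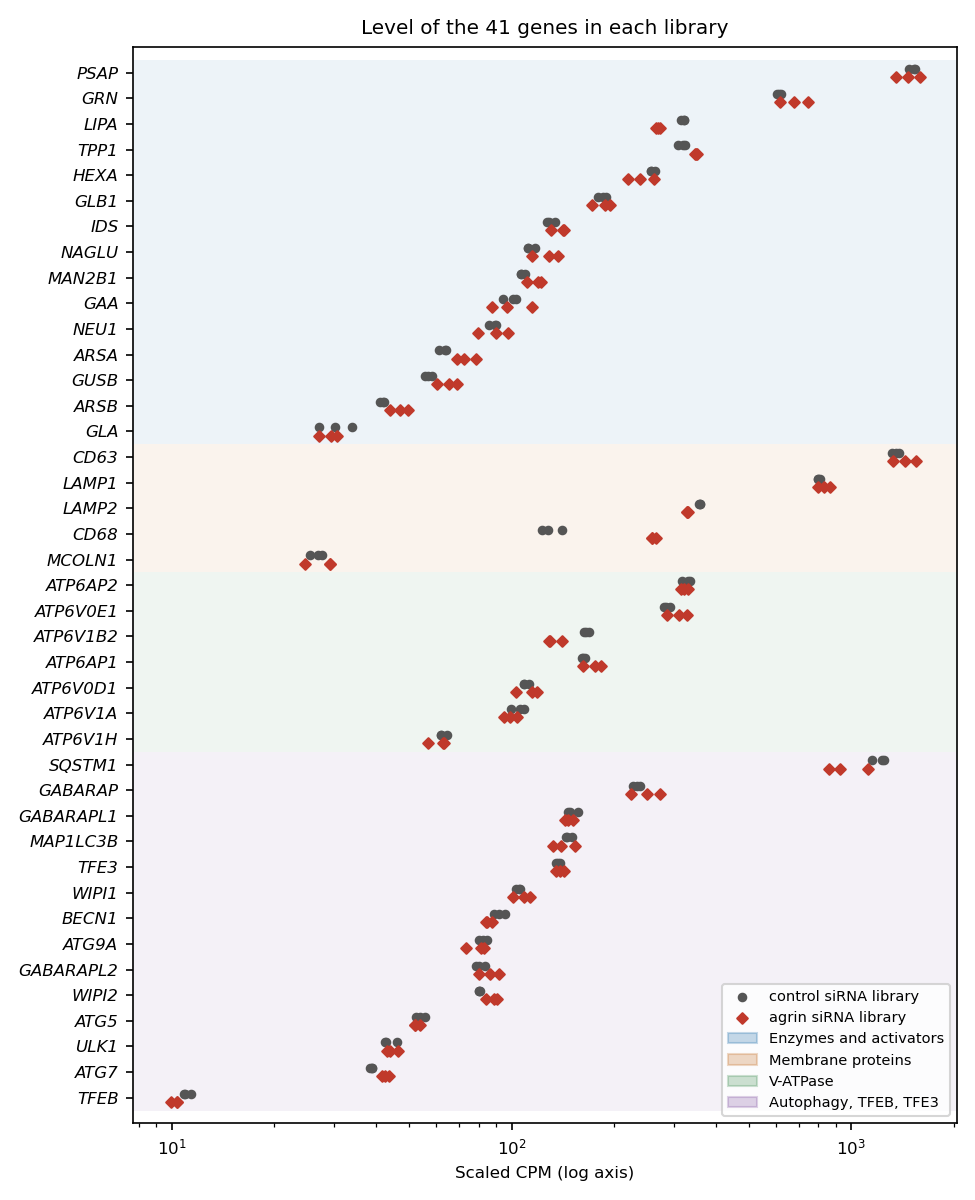
Scaled CPM of the 41 genes in each of the 6 libraries on a log axis, by class, with control siRNA and agrin siRNA libraries in separate colours. For most genes the points of both groups lie close together on this axis, and CD68 has the widest gap between groups. In 14 of the 41 genes (34.1%, against 45.2% of all tested genes) the values of the groups do not overlap.

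Among the lysosomal membrane proteins, CD68 rose 2.00-fold. CD68 is a heavily glycosylated protein of late endosomes and lysosomes, used as a macrophage marker. Control libraries measured 123, 128 and 141 scaled CPM and agrin siRNA libraries 266, 259 and 259. The groups were far apart, with means of 131 ± 9.09 and 261 ± 4.01 (SD, n = 3 each), a log2 fold change of 1.00, a 95% interval from 0.88 to 1.11 and an adjusted p of 6.26e-06 by limma. Among all 13206 tested genes it ranked 11 by p-value and 89 by absolute log2 fold change, and 112 genes (0.848%) were called with a fold change of at least 1.9 in either direction. With each library left out in turn the log2 fold change stayed between 0.96 and 1.05. Per kilobase of exon its level went from 59.8 to 119 scaled CPM.

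Of 10 macrophage and immune markers, CD14 alone has a row in the table used here, so no level is given for the others. CD14 measured 1.32 to 1.70 scaled CPM in control libraries and 2.30 to 2.72 in agrin siRNA libraries, and it rose (log2 fold change 0.59, limma adjusted p = 0.0039). The part of immune cells in the CD68 result was not tested. In bulk RNA, more cells of a type and more RNA per cell cannot be told apart. AC016876.2, a transcript on the same strand that overlaps CD68, had a control mean of 743 scaled CPM and also rose, with a log2 fold change of 0.33 (adjusted p = 0.000384). How reads were divided between it and CD68 is uncertain.

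LAMP2, a lysosomal membrane glycoprotein with a variant that serves chaperone-mediated autophagy, fell slightly. It measured 358, 359 and 355 scaled CPM in control libraries and 327, 328 and 330 after agrin siRNA, so that the mean fell by 8.04% between very tight groups. The log2 fold change was -0.12 (SE 0.03, limma adjusted p = 0.0263). The call was lost without control replicate 1, 2 or 3 or agrin replicate 3 (0.0728 to 0.111) and without the variance trend (0.0593), while the log2 fold change stayed at -0.12. LAMP1, its abundant partner, measured 810, 795 and 799 in control libraries and 866, 795 and 829 after agrin siRNA, which overlap (log2 fold change 0.05, limma adjusted p = 0.436). CD63, a tetraspanin of late endosomes and exosomes, had the highest level per kilobase of all 41 genes (513 scaled CPM per kilobase in control libraries). Its values were 1353, 1320 and 1376 and then 1554, 1322 and 1436, and they overlapped (log2 fold change 0.09, limma adjusted p = 0.313). CD63 would have been called higher without agrin replicate 2 (0.038). MCOLN1, the lysosomal calcium channel, had a log2 fold change of 0.05 (0.657). MCOLN1 overlaps PNPLA6 and AC008878.2 on the same strand. Both of these rose (log2 fold changes 0.34 and 0.33), so how reads were divided among the 3 genes is uncertain.

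In the V-ATPase, ATP6V1B2 was the 1 gene with a call. It encodes the widely expressed B subunit of the cytosolic V1 sector, which binds ATP together with the A subunit. Control libraries measured 169, 163 and 166 scaled CPM and agrin siRNA libraries 141, 129 and 130. The groups did not overlap, with means of 166 ± 2.74 and 133 ± 6.73 (SD, n = 3 each), and the mean fell by 19.8% (log2 fold change -0.32, SE 0.04, limma adjusted p = 0.000816). The call held with any 1 library left out, at adjusted p up to 0.0077. ATP6V1A, the A subunit, measured 105 ± 4.87 in control libraries and 99.2 ± 4.32 after agrin siRNA, with overlap (log2 fold change -0.08, limma adjusted p = 0.239), and the difference between both subunits' changes was not tested.

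The other V-ATPase genes had log2 fold changes from -0.04 to 0.10. ATP6AP2, the accessory subunit also known as the prorenin receptor, measured 335, 331 and 318 scaled CPM in control libraries and 330, 321 and 315 after agrin siRNA, which overlap (log2 fold change -0.03, limma adjusted p = 0.644). ATP6V0E1, a small subunit of the membrane sector, measured 285, 281 and 292 and then 328, 286 and 310, again overlapping (0.10, limma adjusted p = 0.154). ATP6AP1, another accessory subunit, had a log2 fold change of 0.09, and ATP6V0D1 of the membrane sector 0.03. ATP6V0E1 (0.00999) and ATP6AP1 (0.0122) would have been called higher without agrin replicate 2. ATP6V1H, a regulatory subunit of the V1 sector, had a log2 fold change of -0.04.

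SQSTM1, the receptor also called p62 that carries ubiquitinated cargo into autophagosomes, had the largest fall among the autophagy genes. It measured 1249, 1233 and 1153 scaled CPM in control libraries and 1119, 861 and 925 after agrin siRNA. The groups did not overlap, though agrin replicate 1 lay close to the lowest control library. The means were 1212 ± 51.5 and 968 ± 134 (SD, n = 3 each), and the mean fell by 20.1% (log2 fold change -0.33, SE 0.09, limma adjusted p = 0.0194). Leaving out 1 library gave values from -0.44 to -0.25, and the call was lost without control replicate 1 (0.0793), control replicate 2 (0.0708) or agrin replicate 3 (0.078).

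Of the proteins conjugated to the autophagosome membrane none gave a call. GABARAP measured 238, 234 and 228 scaled CPM in control libraries and 273, 225 and 251 after agrin siRNA, which overlap (log2 fold change 0.09, limma adjusted p = 0.301). GABARAPL2 had a log2 fold change of 0.09, GABARAPL1 one of -0.03 and MAP1LC3B, the gene of LC3B, one of -0.05. Without agrin replicate 2, GABARAP (0.0114) and GABARAPL2 (0.028) would have been called higher. GABARAP overlaps the same-strand locus AC120057.2, listed at 241 scaled CPM, so their reads may be split.

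ATG7 rose by 10.3% and WIPI2 by 9.11%. ATG7, the E1-like enzyme of both conjugation systems, went from 38.8, 38.8 and 38.3 scaled CPM to 41.6, 43.7 and 42.5 (log2 fold change 0.14, limma adjusted p = 0.0327). WIPI2, which reads phosphatidylinositol 3-phosphate on the growing membrane, went from 80.8, 80.3 and 80.5 to 90.8, 84.0 and 88.7 (0.12, limma adjusted p = 0.0475). Both sets of groups were separate. The call for ATG7 was lost without control replicate 1, 2 or 3 or agrin replicate 3 (0.0951 to 0.104), and that for WIPI2 without control replicate 1, 2 or 3 or agrin replicate 1 or 3 (0.0896 to 0.148). The ATG7 call was lost also after rescaling (0.0703) and with DESeq2 (0.0754). That of WIPI2 was lost with median-of-ratios scaling, quantile normalization, rescaling, no variance trend, edgeR and DESeq2 (0.0541 to 0.113). In the control libraries both genes varied less than counting error alone would give, with coefficients of variation of 0.727% for ATG7 and 0.272% for WIPI2 against 2.54% and 1.76%. ATG7 overlaps VGLL4 on the opposite strand, which fell (log2 fold change -0.25).

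The starter complexes and the remaining factors gave no call. BECN1, the scaffold of the phosphatidylinositol kinase complex, measured 89.1 to 95.7 scaled CPM in control libraries and 84.3 to 87.7 after agrin siRNA, without overlap (log2 fold change -0.11, limma adjusted p = 0.0848). The log2 fold change was 0.02 for the kinase ULK1, -0.03 for ATG5, -0.06 for the scramblase ATG9A and 0.04 for WIPI1. ATG9A overlaps the same-strand locus AC068946.2, listed at 67.9 scaled CPM, so their reads may be split.

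TFEB had the lowest level of the 41 genes, both in scaled CPM and per kilobase of exon (1.96 scaled CPM per kilobase in control libraries), with 402 to 456 reads in a library. It measured 11.4, 10.9 and 10.9 scaled CPM in control libraries and 9.93, 10.4 and 10.4 after agrin siRNA. The groups did not overlap, but the difference (log2 fold change -0.11, SE 0.06) did not pass the test (limma adjusted p = 0.195). TFE3 measured 135, 139 and 137 and then 139, 135 and 143, which overlap (0.02, limma adjusted p = 0.736). Transcript levels do not show the phosphorylation or the location of either factor.

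The members whose promoter window holds CACGTG had a median log2 fold change of 0.05 (n = 7), and the 25 with a window but without those letters had 0.02. Of the 7, ARSB rose and 6 gave no call. GAA and MCOLN1, which carry the full palindrome printed above, had log2 fold changes of -0.0026 and 0.05, and LAMP1 with its 6 cores had 0.05. A match of letters describes these windows and is not a binding site by itself.

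The 3 agrin siRNA libraries ordered the members in a repeated way. Agrin replicate 1 was the highest of the 3 in 32 of the 41 genes (78.0%, against 38.7% of all tested genes) and agrin replicate 2 the lowest in 30 (73.2%, against 38.9%). The full order, replicate 1 above 3 above 2, was seen in 28 members (68.3%) and in 26.2% of all tested genes. Relative to the control mean, the median member was at 0.08, -0.04 and 0.05 on the log2 scale in agrin replicates 1, 2 and 3, while the median of all tested genes lay between 0.00 and 0.01. LIPA, LAMP2, TPP1 and CD68 had tight agrin siRNA groups, and GAA and SQSTM1 had the widest. The median coefficient of variation of the members was 2.35% in the control libraries and 6.03% in the agrin siRNA libraries, against 3.63% and 5.75% over all tested genes.

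The counts changed when 1 library was left out, and the cause of these changes was not tested. Without agrin replicate 2, 14 members rose (34.1%, against 19.3% of all tested genes) and 4 fell (9.76%, against 19.6%). Without control replicate 1, 1 member rose and 2 fell (8.5% and 7.13% of all tested genes), and without control replicate 2, 2 rose and 2 fell (9.53% and 8.06%). Without control replicate 3, 2 rose and 3 fell (10.2% and 9.59%). Leaving out agrin replicate 3 gave 2 that rose and 2 that fell (9.49% and 8.48%), and leaving out agrin replicate 1 gave 6 and 5 (15% and 13.7%). CD68, LIPA and ATP6V1B2 kept their call in each of these 6 fits.

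**Figure D3:**
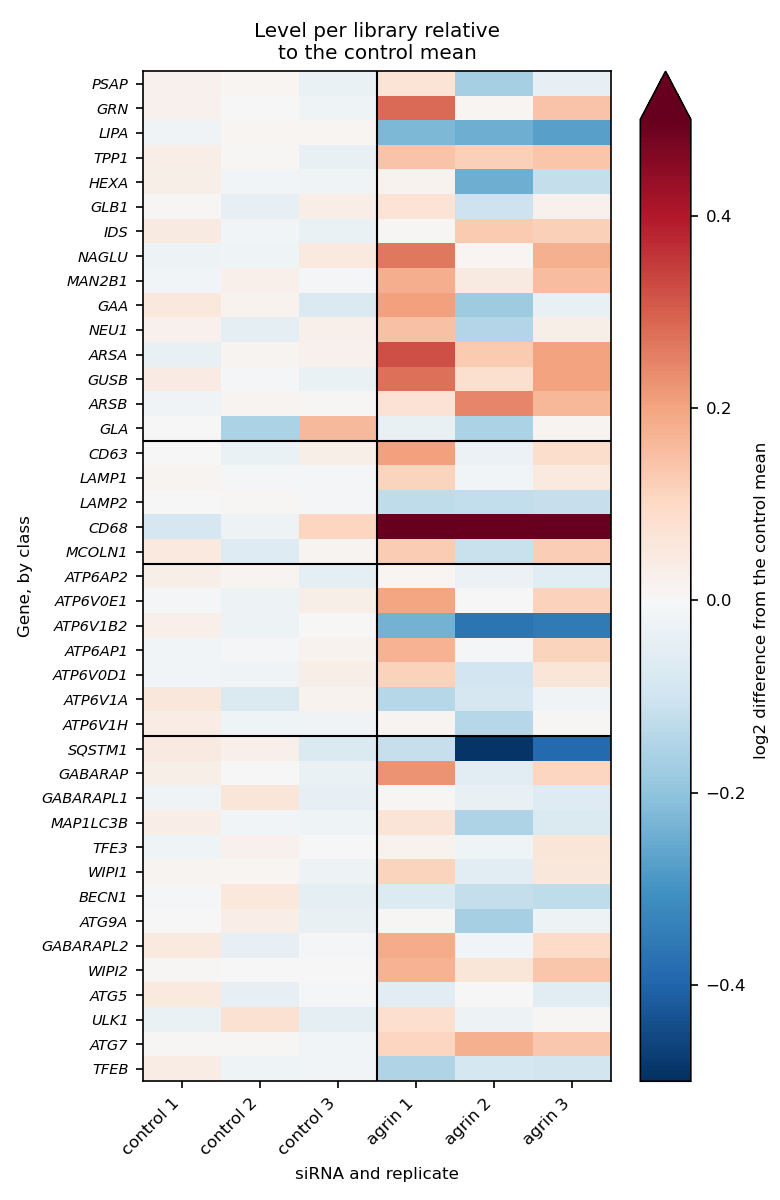
Each member's log2 level in each library relative to the mean of the 3 control libraries, by class. Most rows run from higher in agrin replicate 1 to lower in agrin replicate 2, and the CD68 row is high in all 3 agrin siRNA libraries.

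Genes of the same pathways outside the 41 were counted in 8 lists. Of 157 tested genes in the lists, 18 rose and 35 fell, 33.8% in all, beside 28.7% of all tested genes. Each list's count with all libraries kept stands beside the same background of 15.2% that rose and 13.5% that fell. Counts with 1 library left out stand beside the shares of all tested genes given above for that fit. Counts after rescaling stand beside the 1574 rises and 2260 falls of all tested genes in that setting. Among 28 other lysosomal enzymes and activators, 6 rose and 5 fell (median log2 fold change 0.04). ACP5, the tartrate-resistant acid phosphatase, rose from 15.1 ± 0.512 to 27.9 ± 1.49 scaled CPM (log2 fold change 0.86, limma adjusted p = 1.62e-05). GM2A, the activator that presents ganglioside GM2 to β-hexosaminidase, rose from 52.8 ± 3.15 to 74.3 ± 8.48 (0.49, limma adjusted p = 0.00183). Both rises were larger than any among the 15 enzymes and activators of the 41.

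Of 23 other membrane proteins and transporters 2 rose and 5 fell, and the largest changes were falls of TMEM192 (log2 fold change -0.46), the chloride-proton exchanger CLCN7 (-0.40) and LAPTM4B (-0.35). With 1 library left out, from 0 (without control replicate 1) to 3 of them rose, and 3 fell without control replicate 1 or 2 or agrin replicate 3 but 8 without agrin replicate 1. Of 15 other V-ATPase subunits, ATP6V0C (0.26) and TCIRG1 (0.24) of the membrane sector rose and ATP6V0A2 (-0.21) fell. Without agrin replicate 2, 6 of these subunits rose. The call for ATP6V0A2 was lost without control replicate 1, 2 or 3 or agrin replicate 1 or 3 (limma adjusted p = 0.0512 to 0.111).

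Of 14 genes that target hydrolases to the lysosome, 5 fell and 0 rose. SORT1 encodes sortilin, a receptor that carries prosaposin and binds progranulin. It fell from 70.6 ± 1.71 to 46.3 ± 1.88 scaled CPM (SD, n = 3 each), and the log2 fold change was -0.60 (limma adjusted p = 2.75e-05). The adaptor GGA2 (-0.21) and IGF2R, the cation-independent mannose 6-phosphate receptor (-0.17), fell less. Without control replicate 1 or 3, neither kept its call (0.0612 to 0.115), and 1 gene of the list did. Without control replicate 2 or agrin replicate 3, 3 genes fell, and 1 rose without agrin replicate 1 and 2 without agrin replicate 2.

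Of 24 genes of mTORC1 and its lysosomal regulators, 5 rose and 8 fell. The largest changes were in FNIP2 and FLCN, partners in a complex that activates the RagC and RagD GTPases and through them the phosphorylation of TFEB and TFE3. FNIP2 measured 27.2, 26.7 and 23.6 scaled CPM in control libraries and 17.9, 20.3 and 18.2 after agrin siRNA (log2 fold change -0.45, limma adjusted p = 0.00169). FLCN measured 43.5, 46.7 and 47.1 and then 38.4, 32.5 and 32.9 (-0.40, limma adjusted p = 0.00245). In neither gene did the groups overlap. SESN1, a leucine-responsive inhibitor of mTORC1 signalling, rose (0.34, limma adjusted p = 0.00125). FNIP1, named after its values were seen, fell as well (-0.31, limma adjusted p = 0.00407). The list had 1 gene that rose without control replicate 1 or 3 and 2 without control replicate 2 or agrin replicate 3. It had 4 that fell without control replicate 1 or 2 or agrin replicate 3 and 5 without control replicate 3.

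Of 28 other genes of autophagy initiation and conjugation, 3 rose and 4 fell, and 7 fell after rescaling. TMEM41B, a lipid scramblase of the endoplasmic reticulum needed for autophagosome formation, fell from 30.4 ± 0.691 to 18.7 ± 0.175 scaled CPM (log2 fold change -0.68, limma adjusted p = 1.83e-05). The LC3 protease ATG4A (0.34) and RUBCN, an inhibitor of autophagosome maturation (0.30), rose. Without agrin replicate 2, 6 genes of this list rose and 7 fell.

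Of 12 other autophagy receptors, 6 fell and 0 rose, in the same direction as SQSTM1. CCPG1, a receptor for autophagy of the endoplasmic reticulum, fell from 120 ± 5.60 to 88.5 ± 2.40 scaled CPM (log2 fold change -0.44, limma adjusted p = 0.000172). The mitophagy receptor BNIP3L (-0.28) and TAX1BP1 (-0.23) were next. Without control replicate 1, 3 of the 12 fell. Of 13 genes of autophagosome and lysosome fusion, SNAP29 (-0.14) was the 1 gene called, and its call was lost without control replicate 1 (0.11), control replicate 2 (0.0881) or agrin replicate 3 (0.0965). Without agrin replicate 1 or 2, 3 genes of that list fell, and without agrin replicate 2 1 rose.

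**Figure D4:**
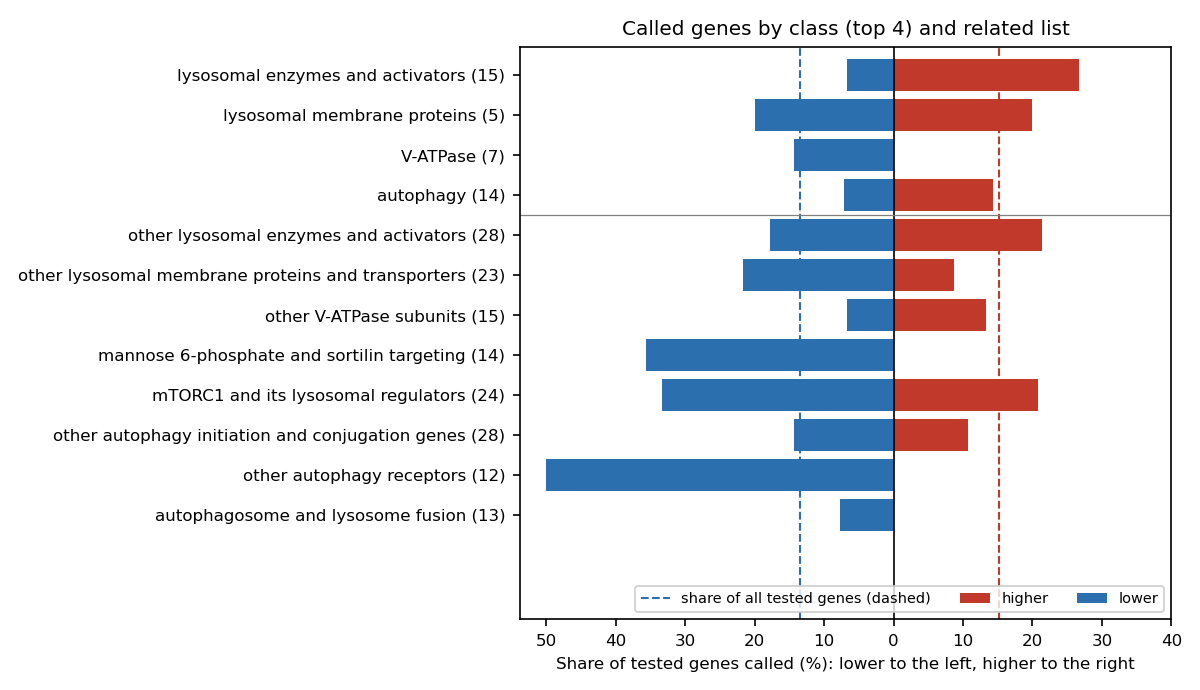
Share of tested genes that fell (left) or rose (right) after agrin siRNA in the 4 classes of members and the 8 related lists, with the number of tested genes in parentheses and the shares over all tested genes, 13.5% and 15.2%, as dashed lines. The receptors reach 50% on the left, and no gene of the targeting, receptor or fusion lists is on the right.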

How the data were processed

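Reads were aligned with STAR 2.6.1d to hg38 and counted with HTSeq, and SAMtools and edgeR were also used, per the submitters' processing notes. The sources used here name no annotation, strand setting or gene filter. The deposited values, labelled CPM by the authors, are a signal of counts divided by a scaling factor: columns do not sum to 1e+06, and 100% of values were whole multiples (within 0.01 reads) of the step worth 1 read. At that depth 3 reads are worth 0.0681 to 0.0761 scaled CPM. The coefficient of variation from counting error alone runs from 0.406% (PSAP) to 4.75% (TFEB) in the control libraries. The measured one is below it in 7 members there (ARSB, LAMP2, ATP6AP1, ATG7, WIPI1, WIPI2 and TFEB) and in 2 in the agrin siRNA libraries (LAMP2 and TFEB).

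Values were tested as log2(value + 0.5) with limma 3.58.1 (R 4.3.3) across the 13206 genes that reached 1 scaled CPM in 3 or more libraries, so fold changes of low genes are understated. Because reads could be recovered, edgeR 4.0.16 and DESeq2 1.42.0 were run on them as alternatives. The steps were also run on simulated reads with the same spread in both groups. The measured spread was larger in the agrin siRNA libraries, so that run does not show how reliable the small changes are. Exact permutation of 3 against 3 cannot give a p below 0.1 and was not used. Spans, exon lengths and overlaps come from GENCODE (GRCh38), where 14144 of 14168 symbols matched 1 gene. Promoters come from RefSeq, GRCh38.p14.

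Per-library values were given for called members with an absolute log2 fold change of at least 0.25, the 2 highest of each class and TFEB, and for AGRN. Those of LIPA, LAMP2, TFE3, FLCN, FNIP2 and the small rises were added after their values were seen. Of each list, the 3 called genes with the largest change were named, except 1 gene that is not reported here. The members and lists were chosen with earlier results of these data known.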

Additional observations from a re-analysis of the deposited data

How the results depend on the processing

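Of the 11 called members, CD68, LIPA and ATP6V1B2 kept call and direction under all 17 alternatives, and all 11 kept their direction. The cause of the changes below was not tested. The 7 rises became 2 after rescaling without mitochondrial and top genes (which moved the median of all genes by -0.03), 3 without the variance trend and 4 with DESeq2. Over all tested genes, 2005 rises and 1783 falls became 1574 and 2260 with rescaling, 1765 and 1556 without the trend, and 1744 and 1689 with DESeq2. They became 1925 and 1827 with median-of-ratios scaling, 1924 and 1795 with quantile normalization, and 1844 and 1887 with edgeR. Rises among enzymes became 1 and 1 with the rescaling and without the trend, from 4. Rises among autophagy genes, 2, became 1 with median-of-ratios scaling, quantile normalization, no variance trend or edgeR and 0 with rescaling or DESeq2, and rescaling gave 2 falls there, with BECN1 the added one. Among the related lists, rescaling gave 7 falls of initiation and conjugation genes (4 before), 3 of fusion genes (1 before, 2 with edgeR) and 3 rises of mTORC1 genes (5 before). Without the trend, 3 targeting genes fell (5 before) and 3 mTORC1 genes rose. Rises of other membrane proteins went from 2 to 1 with quantile normalization, rescaling, no trend, the block or edgeR. The membrane protein that fell, LAMP2, was lost without the variance trend (0 falls).

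Control and agrin siRNA libraries share replicate numbers, and their labels do not say whether same-numbered libraries were handled together. For each gene, the deviation of a library's log2 value from its own group mean was taken, and these deviations were correlated between the groups. Pearson's r was -0.04, 0.17 and 0.20 for same-numbered libraries and -0.33 to 0.15 for differently numbered ones. The deviations of a gene sum to 0 within a group, so these values constrain each other. Whether the libraries were paired was not tested. With the number as a block, 5 members rose and 3 fell, with 0 falls of membrane proteins (LAMP2 lost) and 0 rises of autophagy genes (ATG7 and WIPI2 lost), and all genes gave 1905 and 1775. Signs changed for GAA with DESeq2 (0.0011), CD63 with quantile normalization (-0.049) and, with rescaling, NEU1 (-0.018), ATP6V0D1 (-0.0019), ULK1 (-0.0061) and TFE3 (-0.0091), none of them called.

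With 1 library left out, rises and falls ranged over 1121 to 2538 and 940 to 2586 for all genes, 1 to 14 and 2 to 5 for members, 0 to 6 and 1 to 2 for enzymes, 1 to 2 and 0 to 1 for membrane proteins, and 0 to 4 and 0 to 1 for autophagy genes. V-ATPase rises ranged from 0 to 2. Signs changed among log2 fold changes of ATP6V0D1 (-0.018 to 0.087), ATP6V1H (-0.068 to 0.0096), GAA (-0.11 to 0.085), GLA (-0.14 to 0.021), GLB1 (-0.041 to 0.046), NEU1 (-0.058 to 0.087), PSAP (-0.10 to 0.015), TFE3 (-0.0013 to 0.039) and ULK1 (-0.0084 to 0.060).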
